A study of Mus musculus with 10 samples.

Results

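The SLC25 family is the set of mitochondrial carriers, and its transcripts were followed here in the hearts of LPS-injected mice with and without baicalin. Members were all protein-coding rows of the gene count table whose Ensembl ID maps to a mouse symbol starting with Slc25a. This gave 46 genes on 19 chromosomes, of 31655 rows in the table, 17987 of them protein-coding. SLC25 carriers are small proteins built from repeated membrane-spanning modules. Nearly all sit in the inner mitochondrial membrane, where each moves its own substrate between matrix and cytosol: ADP for ATP, phosphate, the acids of the malate-aspartate shuttle, acylcarnitines, cofactors and metal ions. In heart muscle, which makes most of its ATP in mitochondria, the ADP/ATP carrier is among the most abundant mitochondrial proteins.

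Mice of the baicalin plus LPS group were gavaged for 14 days with 100 mg/kg of baicalin, a flavone glucuronide from the root of Scutellaria, and then injected once into the abdomen with 10 mg/kg of LPS, the bacterial outer-membrane lipid that sets off systemic inflammation. Mice of the LPS group had distilled water by gavage in place of baicalin and the same injection. Hearts of both groups were taken 72 hours after the injection, so both groups carry the LPS challenge. A blank group named in the design text was not analysed here, so no level below can be called normal or LPS-induced. The labels give neither strain, age nor sex. The design text gives 8 mice per group, and 5 libraries per group were analysed. The labels do not say which mouse gave which library. The p-values therefore rest on the spread from library to library, part of which may be technical. Baicalin plus LPS libraries carry the numbers 1, 2, 3, 5 and 7, and LPS libraries the numbers 1 to 5; values per library are given in that order.

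Libraries held 39.4 to 75.7 M counts, of which 30.2% to 44.1% came from mitochondrially encoded genes and 0.324% to 0.470% from the 46 SLC25 genes. The markers of heart muscle were present in all libraries: the summed level of 10 cardiomyocyte genes was 41655 to 51475 CPM (counts scaled to the library total) in the baicalin plus LPS libraries and 36515 to 74227 CPM in the LPS libraries. The LPS group was not uniform. The summed level of 3 acute-phase transcripts, Lcn2, Saa3 and Serpina3n, was 442 to 1562 CPM with baicalin plus LPS. In the LPS group it was 19.0 to 23.4 CPM in libraries 1, 2 and 3, against 1233 and 2312 CPM in libraries 5 and 4. Baicalin plus LPS libraries 2 and 3 also stood apart, with 142 and 105 CPM of Pdk4, the fasting-induced kinase that shuts off pyruvate dehydrogenase, against 1090 to 3948 CPM in the other 8 libraries. For the carriers of highest level and of smallest p-value, log2 fold changes are therefore also given below without these libraries. For the other carriers they are not given.

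Levels between genes are compared as FPKM, which scale fragments to the length of the gene and to the library's total, and levels between libraries as CPM scaled by the trimmed mean of M values (TMM). The family was dominated by Slc25a4, the heart and muscle ADP/ATP carrier (ANT1), which exchanges ATP made in the matrix for cytosolic ADP. It averaged 769 ± 164 FPKM in baicalin plus LPS hearts and 907 ± 86.5 FPKM in LPS hearts (SD, n = 5 each). By itself it made up 51.8% to 61.0% of the summed FPKM of the family in the baicalin plus LPS libraries and 56.5% to 64.8% in the LPS libraries. Next in the order came Slc25a3, the phosphate carrier that feeds ATP synthase, at a mean of 116 FPKM over the 10 libraries. Slc25a11, the oxoglutarate/malate carrier of the malate-aspartate shuttle, followed at 108 FPKM, and Slc25a5, the broadly expressed ADP/ATP carrier (ANT2), at 93.3 FPKM. Slc25a4 stood above all of these in every library, its lowest value being 556 FPKM in baicalin plus LPS library 3. In FPKM, Slc25a3, Slc25a11 and Slc25a5 could not be ordered beyond their spread. Over the 10 libraries they ran from 98.0 to 134, from 73.4 to 136 and from 73.5 to 117 FPKM. In CPM, which are not divided by length, Slc25a3 had at least 498 CPM in every library. Slc25a11 had at most 317 CPM and Slc25a5 at most 180 CPM. Slc25a3 has the longest FPKM length of these carriers. Their order, and the share of Slc25a4 in the summed FPKM, thus depend on the length used for each gene. Slc25a4 was also the highest in CPM, with at least 1199 CPM against at most 808 CPM for Slc25a3.

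**Figure D1:**
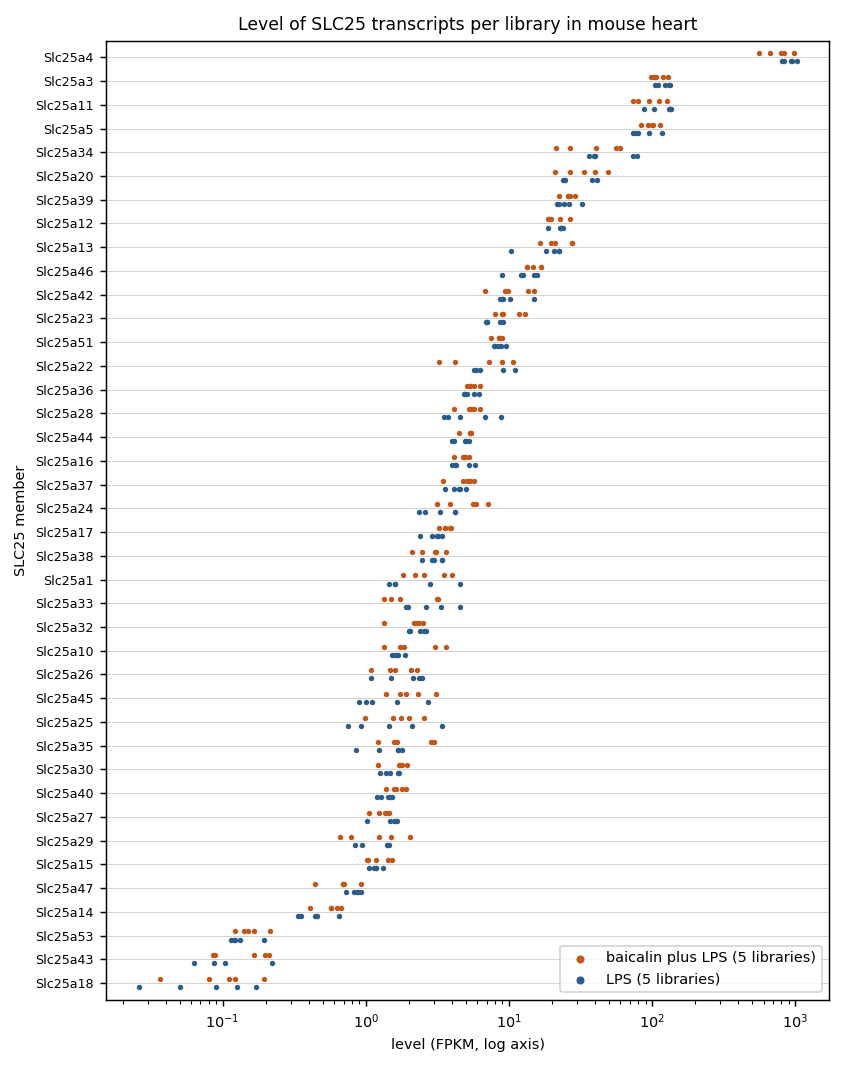
Level of 40 SLC25 genes with a mean of at least 0.1 FPKM, on a log axis of FPKM, with 1 point per library, baicalin plus LPS above LPS in each row and genes ordered by mean FPKM; a library at 0 has no point. Slc25a4 stands alone at the top with a mean of 838 FPKM.

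Below these 4 came Slc25a34, a carrier of unsettled substrate, at a mean of 47.1 FPKM, and Slc25a20, the carnitine/acylcarnitine carrier that brings fatty acyl groups to the matrix for oxidation, at 32.3 FPKM. Slc25a39, which is required for mitochondrial glutathione import, had 25.6 FPKM. The aspartate/glutamate carriers Slc25a12 (aralar) and Slc25a13 (citrin) had 21.9 and 20.6 FPKM, and Slc25a46, an outer-membrane protein tied to mitochondrial shape, had 13.9 FPKM. The remaining 36 members had means between 0.00143 and 10.6 FPKM. Among them Slc25a42, a coenzyme A carrier, was the highest.

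The low-count filter removed 5 of the 46 members, so they have no test. They were Slc25a31 (the testis ADP/ATP carrier ANT4), Slc25a54, Slc25a48, Slc25a21 (the oxodicarboxylate carrier) and Slc25a2 (an ornithine carrier). Their highest values in any library were 0.351 CPM for Slc25a31, 0.176 CPM for Slc25a48, 0.245 CPM for Slc25a21, 0.123 CPM for Slc25a2 and 0.0252 CPM, a single count, for Slc25a54. Slc25a18, the second glutamate carrier, and Slc25a43 passed the filter with at most 0.324 and 0.354 CPM in any library.

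The promoters of the highest carriers by mean FPKM, Slc25a4 and Slc25a3, are shown with the motif found in them. A search was made in the window from 250 bases before to 50 bases after each RefSeq transcription start (GRCm38.p6), on both strands. The letters were AAGGTCA, the core read by estrogen-related receptors, GCATGCG, part of the NRF1 element, and CCGGAAG, the core read by ETS factors such as GABP. These factors are known regulators of nuclear genes for mitochondria. The 3 motifs do not overlap one another in the windows printed. Capitals mark the match, which lies 130 bases before the start for Slc25a4 (minus strand, chr8:46211013-46211312) and 175 bases before it for Slc25a3 (minus strand, chr10:91123918-91124217).
Slc25a4: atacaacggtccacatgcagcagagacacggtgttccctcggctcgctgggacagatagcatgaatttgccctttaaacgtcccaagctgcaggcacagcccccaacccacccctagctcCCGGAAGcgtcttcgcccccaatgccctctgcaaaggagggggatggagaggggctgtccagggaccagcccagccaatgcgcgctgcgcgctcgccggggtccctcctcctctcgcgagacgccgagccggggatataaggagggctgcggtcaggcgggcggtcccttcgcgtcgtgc
Slc25a3: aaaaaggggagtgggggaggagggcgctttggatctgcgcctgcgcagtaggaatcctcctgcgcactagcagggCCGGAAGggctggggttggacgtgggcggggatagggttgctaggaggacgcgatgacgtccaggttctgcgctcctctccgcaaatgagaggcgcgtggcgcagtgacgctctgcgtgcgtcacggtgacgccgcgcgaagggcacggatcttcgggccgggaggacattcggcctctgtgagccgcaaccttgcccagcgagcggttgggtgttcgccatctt
Both matches are CCGGAAG on the strand of the gene. The windows of Slc25a11 and Slc25a5, the next carriers by level, held none of the 3 motifs. Of the 46 genes, 36 matched the table, with 46 promoters between them. CCGGAAG was in 7 of these 46 promoters, those of Slc25a3, Slc25a4, Slc25a17, Slc25a20, Slc25a25, Slc25a38 and Slc25a54, and in 8.86% of all 32851 promoters. GCATGCG was in the promoters of Slc25a31 and Slc25a54 and in 3.58% of all promoters. AAGGTCA was in that of Slc25a34 alone and in 4.72% of all promoters.

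Baicalin plus LPS against LPS was tested with edgeR's quasi-likelihood F test over 16850 genes, with Benjamini-Hochberg adjustment over all of them and a threshold of 0.05. None of the 41 tested carriers passed: 0 were higher and 0 lower with baicalin, beside 0% of all genes. An unadjusted p under 0.05 was reached by 2 of the 41 carriers (4.88%), Slc25a23 and Slc25a24, and by 1878 genes (11.1%). Fold changes, as log2 of baicalin plus LPS over LPS, were positive for 21 carriers, beside 49.4% of all genes, and negative for 20, beside 50.6%. Their median was 0.03, beside -0.00 for all genes tested. DESeq2 called 0 of 42 carriers in either direction, beside 199 genes (1.14%), with 0.554% of all genes called higher and 0.583% lower, and limma-voom called 0 carriers and 0 genes. Limma-voom with sample quality weights (the quality-weighted fit), which lets the more variable libraries count for less, called 11 of 41 carriers (26.8%), beside 17.6% of all genes. It called 4 higher, beside 9.45% of all genes: Slc25a1, Slc25a23, Slc25a24 and Slc25a45. It called 7 lower, beside 8.2% of all genes: Slc25a3, Slc25a11, Slc25a12, Slc25a26, Slc25a27, Slc25a32 and Slc25a47. LPS libraries 1, 2 and 3 held the 3 highest values for each of these 7 but Slc25a12, and the 3 lowest for Slc25a1 and Slc25a45. The part of these libraries in the calls was not tested.

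**Figure D2:**
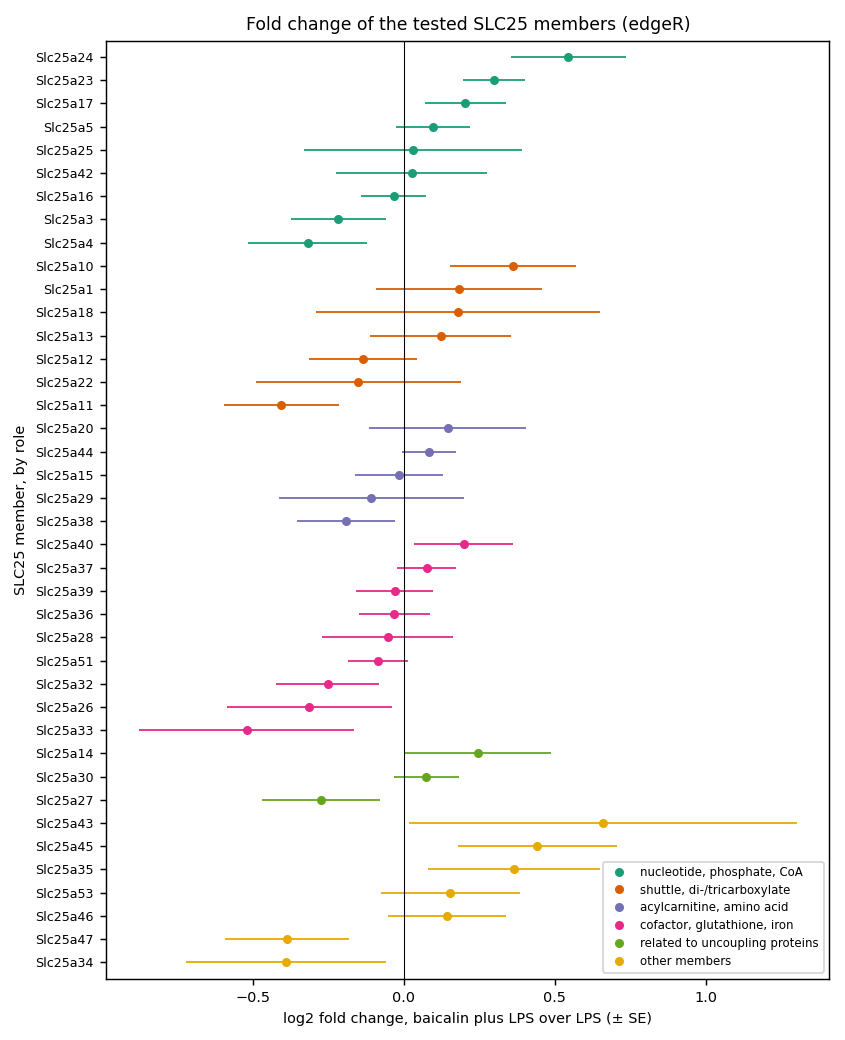
Log2 fold change of 40 tested SLC25 genes, baicalin plus LPS over LPS, with bars of 1 standard error from edgeR, genes grouped and coloured by role. The 21 positive and 19 negative values shown lie around 0, and none passed the threshold on the adjusted p.

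Among the carriers of adenine nucleotides, phosphate and coenzyme A, 6 of 9 tested had positive and 3 negative fold changes, with a median of 0.03. The smallest p-values of the family belonged to Slc25a23 and Slc25a24, which exchange ATP-Mg for phosphate, are switched on by cytosolic calcium and thereby set the adenine nucleotide content of the matrix. Slc25a23 had 47.5, 54.3, 62.7, 47.9 and 45.9 CPM in the baicalin plus LPS libraries, against 40.3, 40.7, 42.1, 41.1 and 45.8 CPM in the LPS libraries. The groups did not overlap, although the lowest baicalin plus LPS library and the highest LPS library were nearly level. No other tested carrier separated the groups: 1 of 41 (2.44%) did so upward, beside 0.878% of all genes, and 0 downward, beside 1.58% (2.46% in either direction). Its log2 fold change was 0.30 ± 0.10 (SE), with an adjusted p of 0.326 in edgeR. Slc25a23 overlaps Crb3 on the other strand. In all, 17 of the 46 members overlap a gene on the other strand, among them Slc25a10, Slc25a11, Slc25a26 and Slc25a33. Whether the counting used strand is not given in the sources used here.

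Slc25a24 had 20.1, 16.7, 22.6, 12.2 and 12.9 CPM in the baicalin plus LPS libraries, against 9.66, 12.3, 9.32, 12.9 and 13.7 CPM in the LPS libraries. Baicalin plus LPS libraries 1, 2 and 3 were above every LPS library, and libraries 5 and 7 lay within the LPS range. This gave a log2 fold change of 0.55 ± 0.19 (SE) and an adjusted p of 0.332 in edgeR. The summed level of 6 fibroblast markers followed a like order: 815, 1274, 1863, 455 and 739 CPM in the baicalin plus LPS libraries, against 531, 544, 488, 747 and 716 CPM in the LPS libraries. All 6 markers had positive fold changes, and the quality-weighted fit called 3 of them higher, beside 9.45% of all genes. The summed level of 8 macrophage markers was 400, 547, 488, 164 and 217 CPM in the baicalin plus LPS libraries. In the LPS libraries it was 150, 131, 125.7, 356 and 302 CPM. As for Slc25a24, baicalin plus LPS libraries 1, 2 and 3 were above every LPS library. All 8 fold changes were positive, and the quality-weighted fit called 6 of these markers higher. No marker of either list was at 0 in all libraries, and their part in the Slc25a24 values was not tested. In bulk tissue, fewer cells of a type and less RNA per cell cannot be told apart.

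Without LPS libraries 1, 2 and 3 the log2 fold change was 0.26 for Slc25a23 and 0.35 for Slc25a24, and without baicalin plus LPS libraries 2 and 3 it was 0.17 and 0.38. Slc25a25, the third calcium-regulated carrier of this kind, ran from 7.12 to 19.9 CPM with baicalin plus LPS and from 6.81 to 24.2 CPM in the LPS libraries, so its groups overlapped throughout.

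Slc25a4 had 1564, 1647, 1199, 2230 and 2237 CPM in the baicalin plus LPS libraries, against 2420, 2136, 2753, 1959 and 1798 CPM in the LPS libraries. The groups overlapped, with baicalin plus LPS libraries 1, 2 and 3 below every LPS library. This gave a log2 fold change of -0.32 ± 0.20 (SE) and an adjusted p of 0.576 in edgeR. The value was -0.07 without LPS libraries 1, 2 and 3 and -0.14 without baicalin plus LPS libraries 2 and 3. Slc25a5 had 167, 143, 126.2, 174 and 180 CPM in the baicalin plus LPS libraries, against 142, 138, 139, 173 and 148 CPM in the LPS libraries, a log2 fold change of 0.10 ± 0.12 (SE) with an adjusted p of 0.804 in edgeR. Without LPS libraries 1, 2 and 3 this was -0.01, and without baicalin plus LPS libraries 2 and 3 it was 0.23. Of the 50-base stretches of its longest transcript, 46.6% also occur in other annotated genes, among them the pseudogenes Gm5560, Gm5529 and Slc25a5-ps, so its counts are uncertain.

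Slc25a3 had 585, 579, 498, 650 and 687 CPM in the baicalin plus LPS libraries, against 808, 795, 785, 521 and 578 CPM in the LPS libraries. LPS libraries 1, 2 and 3 were the 3 highest of all, while LPS libraries 4 and 5 lay within the baicalin plus LPS range. Its log2 fold change was -0.22 ± 0.16 (SE), with an adjusted p of 0.634 in edgeR, and it was 0.14 without those 3 libraries and -0.12 without baicalin plus LPS libraries 2 and 3. Slc25a17, a peroxisomal carrier of coenzyme A and other nucleotide cofactors, had 10.0, 8.13, 9.32, 12.7 and 10.6 CPM in the baicalin plus LPS libraries. In the LPS libraries it had 9.95, 9.04, 7.75, 8.06 and 9.23 CPM. Its log2 fold change was 0.20 ± 0.13 (SE), with an adjusted p of 0.602 in edgeR. It was 0.24 without LPS libraries 1, 2 and 3 and 0.33 without baicalin plus LPS libraries 2 and 3. Slc25a42 had 37.3 to 101 CPM with baicalin plus LPS and 46.9 to 84.7 CPM in the LPS libraries. Slc25a16, which is linked to coenzyme A accumulation in mitochondria, had 18.0 to 26.7 CPM with baicalin plus LPS and 21.9 to 25.0 CPM in the LPS libraries.

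**Figure D3:**
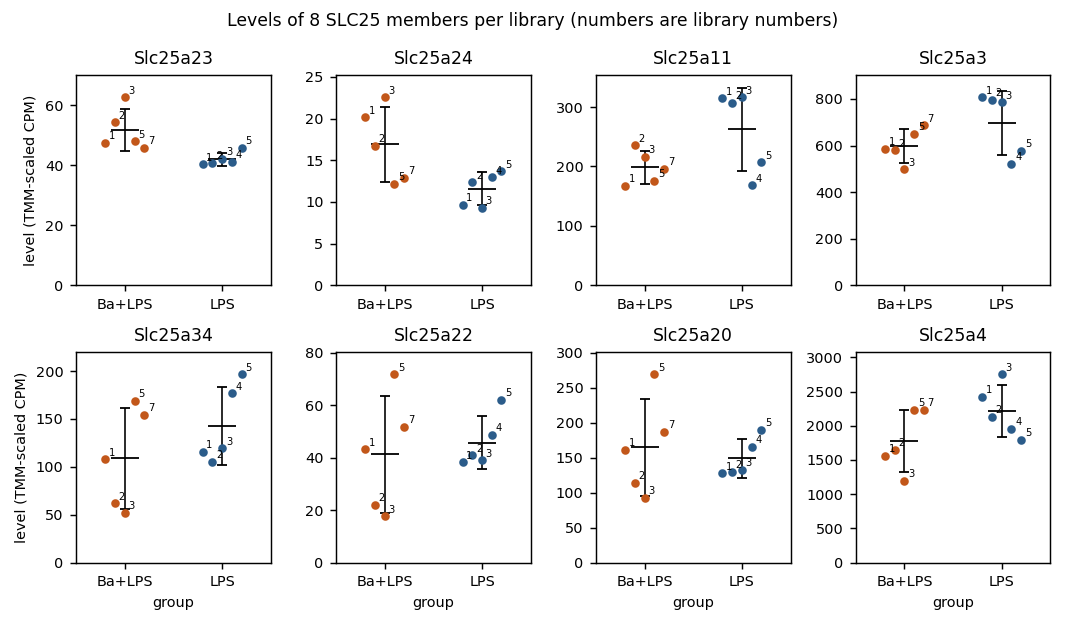
TMM-scaled CPM in every library for 8 carriers, 1 panel per gene with baicalin plus LPS left of LPS, points numbered by library and black bars at the group mean ± SD (n = 5). LPS libraries 1, 2 and 3 sit at the top for Slc25a3 and Slc25a11, baicalin plus LPS libraries 2 and 3 at the bottom for Slc25a34 and Slc25a20, and the groups do not overlap for Slc25a23.

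The carriers of the malate-aspartate shuttle and of di- and tricarboxylates gave 4 positive and 3 negative fold changes among 7 tested, with a median of 0.12. The shuttle passes cytosolic NADH electrons into mitochondria, and the heart relies on it. Its oxoglutarate/malate carrier Slc25a11 had 168, 236, 216, 176 and 196 CPM in the baicalin plus LPS libraries, against 314, 307, 317, 168 and 207 CPM in the LPS libraries. The LPS group fell into 2 levels: libraries 1, 2 and 3 were above every other library, and libraries 4 and 5 lay within or at the edge of the baicalin plus LPS range. The log2 fold change was -0.41 ± 0.19 (SE), with an adjusted p of 0.460 in edgeR, and without LPS libraries 1, 2 and 3 it was 0.09. Without baicalin plus LPS libraries 2 and 3 it was -0.55.

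The other exchange of the shuttle is carried out by Slc25a12 and Slc25a13, which export aspartate for glutamate and bind calcium. Slc25a12 had 140, 146, 127, 223 and 140 CPM in the baicalin plus LPS libraries, against 190, 184, 195, 124 and 158 CPM in the LPS libraries. Slc25a13 had 73.7, 91.1, 95.6, 70.9 and 77.1 CPM in the baicalin plus LPS libraries, against 92.8, 92.4, 89.2, 35.0 and 65.7 CPM in the LPS libraries. LPS library 4, the library with the highest acute-phase sum, was the lowest of the 10 for both genes. The enzymes that work with these carriers, and with the carnitine carrier, were taken as a list of 10 genes. It gave 2 positive and 8 negative fold changes, a median of -0.15 and 0 calls in edgeR. The quality-weighted fit called 1 higher and 3 lower, beside 9.45% and 8.2% of all genes. Mdh2, mitochondrial malate dehydrogenase, had 527 to 700 CPM with baicalin plus LPS and 646 to 924 CPM in the LPS libraries (log2 fold change -0.35 ± 0.14 SE, adjusted p = 0.379 in edgeR). Got1, cytosolic aspartate aminotransferase, had 446 to 573 CPM with baicalin plus LPS. In the LPS libraries Got1 had 804, 729 and 815 CPM in libraries 1, 2 and 3 and 430 and 501 CPM in libraries 4 and 5, the same 2 levels as Slc25a11.

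Slc25a10, the dicarboxylate carrier that exchanges malate or succinate for phosphate, had 5.93, 11.1, 9.60, 5.26 and 6.13 CPM in the baicalin plus LPS libraries, against 5.69, 6.04, 6.70, 5.81 and 5.39 CPM in the LPS libraries. Libraries 2 and 3 of the baicalin plus LPS group were the 2 highest, and the other 3 lay close to the LPS range. The log2 fold change was 0.36 ± 0.21 (SE), with an adjusted p of 0.548 in edgeR, and it was -0.04 without those 2 libraries and 0.45 without LPS libraries 1, 2 and 3. Slc25a1, the citrate carrier that supplies acetyl units for lipid synthesis, had 4.43 to 7.53 CPM with baicalin plus LPS, against 3.77, 3.75, 3.60, 8.79 and 5.71 CPM in the LPS libraries. Here LPS libraries 1, 2 and 3 were the 3 lowest, the reverse of Slc25a11. The glutamate carrier Slc25a22 had 43.2, 21.9, 17.7, 71.8 and 51.8 CPM in the baicalin plus LPS libraries, against 38.2, 41.0, 38.98, 48.6 and 62.1 CPM in the LPS libraries, with baicalin plus LPS libraries 2 and 3 the lowest of all.

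Acylcarnitine and amino acid carriers gave 2 positive and 3 negative fold changes among 5 tested, with a median of -0.02. Slc25a20 had 161, 114, 92.9, 269 and 187 CPM in the baicalin plus LPS libraries, against 128, 130, 132, 165 and 190 CPM in the LPS libraries. Baicalin plus LPS library 5 was the highest of the 10, and libraries 2 and 3 of that group the lowest. The log2 fold change was 0.15 ± 0.26 (SE), with an adjusted p of 0.869 in edgeR, and it was -0.10 without baicalin plus LPS library 5. It was also -0.10 without LPS libraries 1, 2 and 3, and 0.47 without baicalin plus LPS libraries 2 and 3. Slc25a44, a carrier of branched-chain amino acids in mouse brown fat, was the steadiest of the 41 tested carriers. It had 17.02 to 19.5 CPM with baicalin plus LPS and 16.1 to 19.1 CPM in the LPS libraries, a coefficient of variation of 6.72% over the 10 libraries. Slc25a15, the main ornithine carrier of the urea cycle, had 5.73 to 7.80 CPM with baicalin plus LPS and 5.36 to 8.01 CPM in the LPS libraries. Slc25a38, the glycine carrier needed for heme synthesis, had 6.53 to 8.74 CPM with baicalin plus LPS and 6.46 to 10.7 CPM in the LPS libraries. Slc25a29, a carrier of basic amino acids, had 1.72 to 4.65 CPM with baicalin plus LPS and 1.98 to 4.25 CPM in the LPS libraries.

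Slc25a34, the fifth carrier by level, had 108, 62.0, 52.0, 169 and 154 CPM in the baicalin plus LPS libraries, against 116, 105, 119, 177 and 197 CPM in the LPS libraries. Baicalin plus LPS libraries 2 and 3 were the lowest of all, and LPS libraries 4 and 5 the highest. The log2 fold change was -0.39 ± 0.33 (SE), with an adjusted p of 0.694 in edgeR, and without baicalin plus LPS libraries 2 and 3 it was 0.01. Without LPS libraries 1, 2 and 3 it was -0.77. The same pair of libraries held the 2 lowest values for 6 of 41 carriers (14.6%), namely Slc25a20, Slc25a22, Slc25a33, Slc25a34, Slc25a39 and Slc25a51, and for 9.41% of all genes. They held the 2 highest values for 3 carriers (7.32%), Slc25a10, Slc25a23 and Slc25a35, and for 10.3% of all genes. Ucp3, the muscle uncoupling protein and a member of the same carrier family under another symbol, showed this split most widely, with 16.6 CPM in library 2 and 9.06 CPM in library 3 of the baicalin plus LPS group and 142 to 318 CPM in its other 3 libraries. In the LPS group Ucp3 had 71.97 to 80.3 CPM in libraries 1, 2 and 3 and 208 and 227 CPM in libraries 4 and 5.

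The promoters of Slc25a34 and Slc25a20, the 2 highest carriers of that set of 6, are shown for comparison. In Slc25a34 (minus strand, chr4:141623785-141624084) the capitals mark AAGGTCA read on the opposite strand, beginning 119 bases before the start. In Slc25a20 (plus strand, chr9:108661886-108662185) they mark CCGGAAG on the strand of the gene, 79 bases before the start.
Slc25a34: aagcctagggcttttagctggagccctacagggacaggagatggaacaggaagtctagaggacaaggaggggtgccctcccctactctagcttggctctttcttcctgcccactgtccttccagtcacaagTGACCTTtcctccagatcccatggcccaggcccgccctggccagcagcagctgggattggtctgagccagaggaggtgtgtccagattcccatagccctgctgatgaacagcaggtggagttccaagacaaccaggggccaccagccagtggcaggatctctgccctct
Slc25a20: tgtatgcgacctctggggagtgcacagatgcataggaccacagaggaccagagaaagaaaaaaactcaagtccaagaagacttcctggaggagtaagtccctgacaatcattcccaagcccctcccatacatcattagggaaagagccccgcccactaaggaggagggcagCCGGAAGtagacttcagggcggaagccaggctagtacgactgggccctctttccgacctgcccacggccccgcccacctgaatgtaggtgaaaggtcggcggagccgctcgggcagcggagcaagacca
The printed promoters of these 2 genes thus hold different motifs, and the windows of Slc25a22, Slc25a33 and Slc25a39 hold none of the 3.

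**Figure D4:**
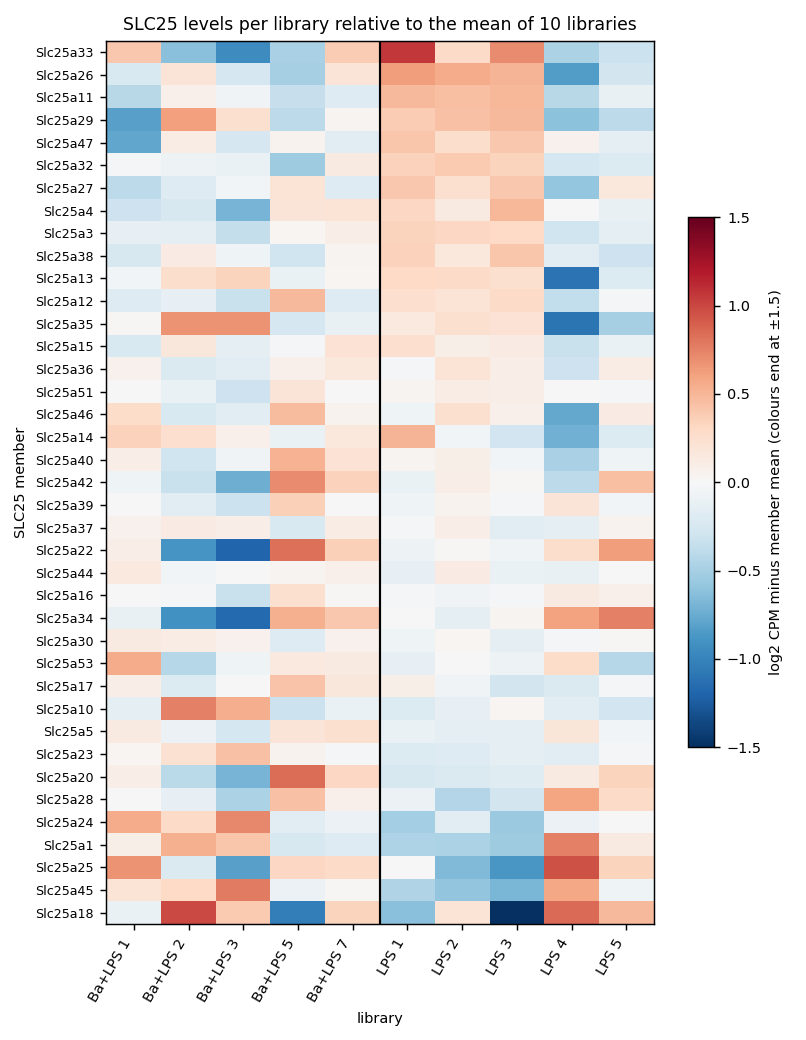
Deviation of 39 tested carriers, each from its own mean, in log2 units of TMM-scaled CPM, with carriers in rows, ordered by their level in LPS libraries 1, 2 and 3, and the 10 libraries in columns, baicalin plus LPS left of LPS. Slc25a43 is left out because 1 library had 0 counts. A block of carriers including Slc25a11 and Slc25a3 is high in LPS libraries 1, 2 and 3, and Slc25a22, Slc25a34 and Slc25a20 are low in baicalin plus LPS libraries 2 and 3.

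Cofactor, nucleotide, glutathione and iron carriers gave 2 positive and 8 negative fold changes among 10 tested and a median of -0.07. EdgeR called 0 of the 10, and the quality-weighted fit called Slc25a26 and Slc25a32 lower, beside 8.2% of all genes. Slc25a33, a pyrimidine nucleotide carrier induced by insulin signalling, had 5.91, 2.88, 2.32, 3.18 and 5.80 CPM in the baicalin plus LPS libraries, against 9.29, 5.43, 7.27, 3.21 and 3.55 CPM in the LPS libraries. Its log2 fold change was -0.52 ± 0.35 (SE), with an adjusted p of 0.615 in edgeR, 0.25 without LPS libraries 1, 2 and 3, and -0.21 without baicalin plus LPS libraries 2 and 3. Slc25a32, which carries folate or flavin cofactors into the matrix, had 13.1, 12.6, 12.5, 9.21 and 14.7 CPM in the baicalin plus LPS libraries, against 16.9, 17.5, 16.8, 11.1 and 11.6 CPM in the LPS libraries. LPS libraries 1, 2 and 3 were again the 3 highest, and the log2 fold change was -0.25 ± 0.17 (SE), with an adjusted p of 0.610 in edgeR, or 0.14 without them and -0.26 without baicalin plus LPS libraries 2 and 3. Slc25a26, the carrier of the methyl donor S-adenosylmethionine, had 5.88 to 9.54 CPM with baicalin plus LPS, against 12.9, 12.3, 11.8, 4.67 and 6.86 CPM in the LPS libraries. Slc25a51, the NAD carrier, had 37.5 to 53.2 CPM with baicalin plus LPS and 45.6 to 50.3 CPM in the LPS libraries.

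LPS libraries 1, 2 and 3 held the 3 highest values for 8 of the 41 carriers (19.5%), among them Slc25a3, Slc25a11, Slc25a26, Slc25a27 and Slc25a32, and for 9.55% of all genes. They held the 3 lowest for 2 carriers (4.88%), Slc25a1 and Slc25a45, and for 9.61% of all genes. The summed level of the 10 cardiomyocyte markers was also highest in these libraries, at 65580 to 74227 CPM, against 36515 and 41403 CPM in LPS libraries 4 and 5 and 41655 to 51475 CPM with baicalin plus LPS. Of these markers 8 of 10 had negative fold changes. EdgeR called 0 of them, and the quality-weighted fit called 6 lower and 0 higher, beside 8.2% and 9.45% of all genes. No marker was at 0 in all libraries, and the part of these markers in the carrier values was not tested. Ppargc1a, the coactivator that drives mitochondrial gene expression, had 173, 112, 113, 131 and 124 CPM in the baicalin plus LPS libraries, against 237, 310, 478, 46.0 and 116 CPM in the LPS libraries (log2 fold change -0.86 ± 0.48 SE, adjusted p = 0.530 in edgeR). It too was highest in LPS libraries 1, 2 and 3, and lowest in LPS library 4. A list of 10 regulators of mitochondrial genes that holds Ppargc1a gave 2 positive and 8 negative fold changes with a median of -0.12 and 0 calls in edgeR. The quality-weighted fit called 2 of them lower, beside 8.2% of all genes.

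The brain-type uncoupling proteins and their relative gave 2 positive and 1 negative fold change among 3 tested, with a median of 0.08. Slc25a27 (UCP4) had 4.09, 4.69, 5.21, 6.16 and 4.68 CPM in the baicalin plus LPS libraries, against 7.07, 6.31, 7.08, 3.58 and 5.95 CPM in the LPS libraries. Its log2 fold change was -0.27 ± 0.19 (SE), with an adjusted p of 0.627 in edgeR, 0.06 without LPS libraries 1, 2 and 3, and -0.27 without baicalin plus LPS libraries 2 and 3. Slc25a14 (UCP5) had 1.09 to 1.49 CPM with baicalin plus LPS and 0.708 to 1.67 CPM in the LPS libraries. Slc25a30 (KMCP1) had 6.28 to 7.90 CPM with baicalin plus LPS and 6.54 to 7.36 CPM in the LPS libraries. Of the family members with other symbols, Ucp2, Ucp3, Mtch1 and Mtch2 gave 1 positive and 3 negative fold changes with 0 calls in edgeR. The quality-weighted fit called 1 of them higher, beside 9.45% of all genes. Ucp1, the brown fat uncoupling protein, was below the filter.

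Carriers of unsettled or other function gave 5 positive and 2 negative fold changes among 7 tested, with a median of 0.15. EdgeR called 0 of them, and the quality-weighted fit called Slc25a45 higher and Slc25a47 lower, beside 9.45% and 8.2% of all genes. Slc25a45 had 5.25, 5.57, 7.81, 4.29 and 4.60 CPM in the baicalin plus LPS libraries, against 3.34, 3.01, 2.83, 6.77 and 4.34 CPM in the LPS libraries. Its log2 fold change was 0.44 ± 0.26 (SE), with an adjusted p of 0.558 in edgeR. LPS libraries 1, 2 and 3 held its 3 lowest values, and without them the log2 fold change was 0.0022. It was 0.70 without LPS library 4 and 0.22 without baicalin plus LPS libraries 2 and 3. Slc25a35 had 6.08, 9.62, 9.62, 5.06 and 5.58 CPM in the baicalin plus LPS libraries, against 6.69, 7.12, 7.02, 2.81 and 4.28 CPM in the LPS libraries, a log2 fold change of 0.37 ± 0.29 (SE) with an adjusted p of 0.666 in edgeR. Without LPS libraries 1, 2 and 3 it was 1.03, and without baicalin plus LPS libraries 2 and 3 it was -0.00. Slc25a35 overlaps Rangrf on the other strand, and 25.8% of the 50-base stretches of its longest transcript also occur in other genes. Slc25a47, known mainly from liver, had 1.31, 2.43, 1.89, 2.34 and 2.02 CPM in the baicalin plus LPS libraries, against 3.002, 2.70, 2.99, 2.35 and 2.05 CPM in the LPS libraries, a log2 fold change of -0.39 ± 0.20 (SE) with an adjusted p of 0.511 in edgeR. It was -0.12 without LPS libraries 1, 2 and 3 and -0.46 without baicalin plus LPS libraries 2 and 3. Slc25a46 had 63.5 to 103 CPM with baicalin plus LPS and 43.6 to 87.9 CPM in the LPS libraries, and Slc25a53 had 0.853 to 1.69 CPM with baicalin plus LPS and 0.856 to 1.40 CPM in the LPS libraries.

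Carriers with a like substrate were set against each other in 6 pairs, as the log2 ratio of their FPKM in each library, which removes the library's scaling. The ratio itself depends on the length used for each gene, while its difference between groups does not. The ratio was compared between groups by a two-sided exact permutation test over the libraries, with a smallest possible p of 0.00794 and adjustment over the 6 pairs. Slc25a4 stood above Slc25a5 by 6.55, 8.05, 6.65, 8.97 and 8.70 times in the baicalin plus LPS libraries, against 11.9, 10.8, 13.9, 7.93 and 8.52 times in the LPS libraries. The difference in log2 ratio was -0.43 (exact p = 0.0714, adjusted p = 0.276). LPS libraries 1, 2 and 3 were the 3 highest, and LPS libraries 4 and 5 lay within the baicalin plus LPS range. The difference was -0.09 without LPS libraries 1, 2 and 3 and -0.38 without baicalin plus LPS libraries 2 and 3.

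Per length, Slc25a12 and Slc25a13 were close to level. Their ratio was 0.685 to 1.63 in the baicalin plus LPS libraries and 1.03 to 1.83 in the LPS libraries. The log2 difference was -0.34 (exact p = 0.230, adjusted p = 0.276). In CPM, which are not divided by length, Slc25a12 was the higher, at 124 to 223 CPM against 35.0 to 95.6 CPM for Slc25a13. The iron carriers Slc25a37 (mitoferrin 1) and Slc25a28 (mitoferrin 2) were also close to level per length. The ratio was 0.549 to 1.30 in the baicalin plus LPS libraries and 0.520 to 1.26 in the LPS libraries. The log2 difference was 0.11 (exact p = 0.675, adjusted p = 0.675). Slc25a37 had 28.7, 30.0, 29.5, 23.5 and 29.7 CPM in the baicalin plus LPS libraries, against 27.0, 29.3, 24.6, 24.7 and 28.5 CPM in the LPS libraries. Slc25a28 had 19.6, 17.9, 14.1, 26.6 and 20.7 CPM in the baicalin plus LPS libraries, against 18.4, 14.5, 16.2, 29.6 and 24.0 CPM in the LPS libraries. Baicalin plus LPS library 5 was the lowest of its group for Slc25a37 and the highest for Slc25a28. Mitoferrin 1 is the form that red cell precursors use. The summed level of 6 erythroid markers was 21.5 to 72.7 CPM with baicalin plus LPS and 13.2 to 487 CPM in the LPS libraries. Its highest value was in LPS library 4, where Slc25a37 was among the lowest. All 5 tested erythroid markers had negative fold changes. EdgeR called 0 of them, and the quality-weighted fit called 1 lower, beside 8.2% of all genes. The part of these markers in the Slc25a37 values was not tested.

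Per length, the glutathione carrier Slc25a39 stood 14.1 to 18.7 times above its relative Slc25a40 in the baicalin plus LPS libraries. In the LPS libraries it stood 15.8 to 27.3 times above, a log2 difference of -0.23 (exact p = 0.175, adjusted p = 0.276). Slc25a39 had 70.6, 62.7, 56.0, 90.3 and 70.5 CPM in the baicalin plus LPS libraries, against 67.2, 72.9, 68.6, 80.4 and 68.3 CPM in the LPS libraries. Slc25a40 had 13.5, 10.2, 12.1, 18.0 and 14.6 CPM in the baicalin plus LPS libraries, against 13.0, 13.4, 12.2, 8.96 and 12.003 CPM in the LPS libraries. The highest ratio, 27.3, came from LPS library 4, where Slc25a40 was at its lowest.

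Of the pyrimidine nucleotide carriers, Slc25a36 had 54.5, 45.0, 46.9, 54.9 and 58.1 CPM in the baicalin plus LPS libraries, against 51.2, 59.9, 55.8, 41.9 and 56.3 CPM in the LPS libraries. It stood 1.81 to 3.98 times above Slc25a33 per length in the baicalin plus LPS libraries and 1.09 to 3.12 times in the LPS libraries, a log2 difference of 0.48 (exact p = 0.214, adjusted p = 0.276). Of the calcium-regulated ATP-Mg/phosphate carriers, Slc25a23 stood 1.53 to 2.55 times above Slc25a24 in the baicalin plus LPS libraries and 2.06 to 2.93 times in the LPS libraries, a log2 difference of -0.23 (exact p = 0.214, adjusted p = 0.276). In all 6 pairs the groups overlapped, and none of the differences passed the threshold.

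**Figure D5:**
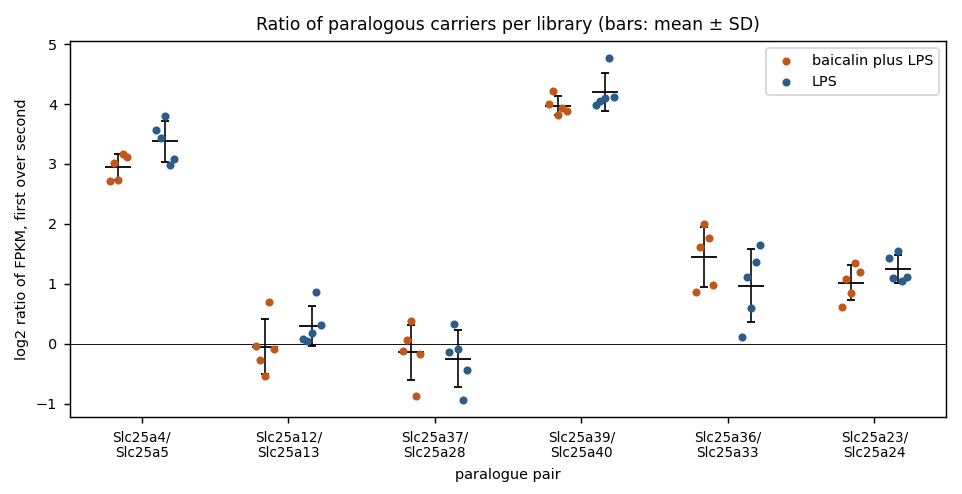
Log2 ratio of FPKM between the members of 6 carrier pairs in every library, with baicalin plus LPS left of LPS and black bars at the group mean ± SD (n = 5). For Slc25a4/Slc25a5 the log2 ratio averages 2.95 ± 0.21 with baicalin plus LPS and 3.38 ± 0.34 with LPS, and the groups overlap in all 6 pairs.

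Carriers reach the inner membrane through the TOM complex, the small TIM chaperones and the TIM22 complex. A list of 13 genes of this import route gave 6 positive and 7 negative fold changes, a median of -0.01 and 0 calls in edgeR. The quality-weighted fit also called 0 of them, beside 17.6% of all genes. A list of 22 other mitochondrial transport genes held the pyruvate carrier, the porins, the calcium uniporter and the sideroflexins, among others. It gave 11 positive and 11 negative fold changes, a median of 0.02 and 0 calls in edgeR. The quality-weighted fit called 3 higher and 1 lower, beside 9.45% and 8.2% of all genes. Mcub, the subunit that dampens the calcium uniporter, had 3.53, 3.90, 5.82, 2.07 and 2.33 CPM in the baicalin plus LPS libraries, against 1.35, 1.25, 1.30, 2.79 and 3.05 CPM in the LPS libraries (log2 fold change 0.86 ± 0.36 SE, adjusted p = 0.410 in edgeR). Like Slc25a24, it was highest in baicalin plus LPS libraries 1, 2 and 3.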

How the data were processed

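RNA was measured in mouse heart tissue. Per the labels' protocols it was extracted with TRIzol, and 1 µg went into an ABclonal mRNA-seq kit. The deposited count table holds whole-number read counts per Ensembl gene for 10 libraries, not normalized by the authors. The genome build was mm10, per the submitters' processing notes; not given in the sources used here are the aligner, the counter, the annotation and whether strand was used. The FPKM table deposited by the authors is the count divided by 1 length for each gene and by the library's total (to a relative error of 5.4e-13), so it adds no measurement. Totals were 39.4 to 75.7 M counts. Because 61.6% to 64.7% of the values from 1 to 50 were even, counts are not independent fragments, and no counting intervals are given.

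Symbols and gene positions came from GENCODE M21 on GRCm38 (mm10), which names 31076 of 31655 IDs. Promoter sequences are RefSeq's (GRCm38.p6). Counts were tested with edgeR 4.0.16 in R 4.3.3 (TMM, filtering by group, robust quasi-likelihood F test, two-sided, Benjamini-Hochberg over 16850 genes, threshold 0.05), and the standard error comes from the F statistic. The biological coefficient of variation was 31.4%. CPM values are TMM-scaled and FPKM values are as deposited. Alternatives were DESeq2 1.42.0, limma 3.58.1 and other scalings, filters and sets of libraries. The steps were tested on simulated data. Among the 20 pairs of libraries within a group, the chi-square over genes was at least 15.2 times its degrees of freedom. The lowest values, 15.2 to 20.7, were those of the pairs among LPS libraries 1, 2 and 3. The next was 28.6, for baicalin plus LPS libraries 1 and 7, and LPS libraries 4 and 5 had 149. LPS libraries 1, 2 and 3 were thus the most alike, and the labels do not say whether they came from separate mice. This measure treats counts as independent, which they are not. No libraries were merged. Deviations of same-numbered libraries from their group means correlated at -0.10 to 0.08 over numbers 1, 2, 3 and 5, and the main fit used no pairing. These deviations also hold the differences of the libraries that stand apart, so they cannot exclude a pairing.

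Values in every library are given for the 6 members of highest FPKM, up to 6 of smallest p in each direction and the members of the 6 pairs. One member is counted in the totals but not reported here by itself. Members, gene lists and the libraries left out were chosen with earlier results of these data known.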

Additional observations from a re-analysis of the deposited data

Results flagged for a closer look

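In each group of 5 libraries, the highest and the lowest library were set against the rest by Dixon's criterion for an outlying value (critical ratio 0.710), for the 41 tested carriers. This made 82 groups, of which 4 passed; chance passes about 1 in 20. Slc25a12, the aspartate/glutamate carrier, had 223 CPM in baicalin plus LPS library 5, against 127 to 146 CPM in the other libraries of that group. The same library was the low one for Slc25a37, the iron carrier mitoferrin 1, with 23.5 CPM against 28.7 to 30.0 CPM in the others. It was also low for Slc25a30, a relative of the uncoupling proteins, with 6.28 CPM against 7.52 to 7.90 CPM. In the LPS group, Slc25a5, the ADP/ATP carrier ANT2, had 173 CPM in library 4 and 138 to 148 CPM in the others.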

How the results depend on the processing

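No carrier was called in either direction under any of the 26 alternatives to the edgeR fit except limma-voom with sample quality weights, which called 4 carriers higher and 7 lower, and 2974 genes in all. DESeq2 called 199 genes and a fit with no filter 2 genes; the cause of these differences was not tested. The median carrier fold change lay between -0.04 and 0.10 over all alternatives. With library totals alone the median of all genes was 0.07, and with log2(FPKM + 0.1) it was 0.08. Leaving out 1 library at a time called 0 genes each time and moved the carrier median between -0.04 and 0.07. Slc25a20 then ran from -0.10 to 0.30, and the Slc25a37/Slc25a28 log2 ratio difference from -0.065 to 0.29.

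Signs turned where the libraries that stand apart were left out; the cause was not tested. Without LPS libraries 1, 2 and 3, the log2 fold change was 0.14 for Slc25a3, 0.089 for Slc25a11, -0.0086 for Slc25a5, -0.10 for Slc25a20, 0.14 for Slc25a32, 0.25 for Slc25a33 and 0.065 for Slc25a27, and the Slc25a36/Slc25a33 difference was -0.059. Without baicalin plus LPS libraries 2 and 3 it was 0.0083 for Slc25a34, -0.037 for Slc25a10 and -0.0032 for Slc25a35, and the Slc25a37/Slc25a28 difference was -0.13.

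Numbers 1, 2, 3 and 5 occur in both groups. With the number as a replicate block, 0 genes were called, the median of 40 tested carriers was -0.02, and 2565 genes had an unadjusted p under 0.05; the same 8 libraries with no replicate block gave 0 calls, a median of 0.00 and 3113 genes. With 5 libraries a group and this spread, a p above the threshold does not show that a carrier was level between groups.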

Other observations

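Spread across the 10 libraries differed widely within the family. Slc25a44, Slc25a30, Slc25a37 and Slc25a51 were the steadiest tested carriers, with coefficients of variation of 6.72%, 7.27%, 8.84% and 9.13% of their CPM. The largest values, 53.6% and 47.4%, were those of Slc25a43 and Slc25a18, which had at most 0.354 and 0.324 CPM in any library. Slc25a33, Slc25a25, Slc25a34 and Slc25a22 followed with 46.0%, 42.1%, 38.1% and 37.8%. For Slc25a22 the highest library had 4.06 times the CPM of the lowest, and for Slc25a44 1.21 times.

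In 3 places, 2 carrier genes are neighbours in the genome. Slc25a29 and Slc25a47 on chromosome 12 lie on opposite strands, with 162 bases between their GENCODE gene bounds. Their RefSeq starts lie further apart, with promoter windows at chr12:108835827-108836126 for Slc25a29 and chr12:108850879-108851178 for Slc25a47. Slc25a29, with a mean of 1.23 FPKM, had 1.72, 4.65, 3.58, 2.30 and 3.10 CPM in the baicalin plus LPS libraries, against 3.95, 4.10, 4.25, 1.98 and 2.30 CPM in the LPS libraries. Slc25a47 had a mean of 0.769 FPKM and, like Slc25a29, was higher in LPS libraries 1, 2 and 3 than in LPS libraries 4 and 5. Slc25a54, with a single count in all libraries together, lies 6.461 kb upstream of Slc25a24, which had 4.24 FPKM. Slc25a43, with 0.123 FPKM, lies 18.448 kb upstream of Slc25a5, which had 93.3 FPKM.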
